A study of Mus musculus with 10 samples.

Results

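The pyruvate dehydrogenase complex sits in the mitochondrial matrix and turns pyruvate, the end product of glycolysis, into acetyl-CoA for the TCA cycle and, after export as citrate, for fatty acid synthesis. Its E1 component decarboxylates pyruvate, its E2 component passes the acetyl group to coenzyme A, and a binding subunit holds the E3 component in place. Pyruvate dehydrogenase kinases switch the complex off by phosphorylating the E1 alpha subunit, and pyruvate dehydrogenase phosphatases switch it on again. The kinase genes respond to different signals in normal and cancer cells, Pdk1 being a target of hypoxia-inducible factors (HIF) and Pdk4 of the PPAR and FOXO factors of fasting and fat use.

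The 10 genes described here are the kinases Pdk1, Pdk2, Pdk3 and Pdk4, the phosphatases Pdp1 and Pdp2, the E1 subunits Pdha1 and Pdhb, the E2 subunit Dlat and the E3-binding subunit Pdhx. They were chosen by name and not by their values, though with earlier results of these data known. They make up 10 of the 55359 genes of the deposited table. Their transcripts were measured by RNA sequencing in 10 orthotopic tumors, that is, tumors grown in the pancreas itself. KPC K8484, a mouse pancreatic cancer line made to express luciferase, was the source of every tumor. The hosts were immunocompetent, 10 weeks old when the cells were placed, and of strain C57BL/6 by the labels (C57BL/6 J by the methods). The 5 CTRL mice drank regular water, and the 5 D30 mice drank water with 30% dextrose for 14 days. The labels name no other agent for either group, their titles call the tumors PDX while their source is the KPC K8484 line, and all tumors of both groups thus stem from 1 cell line. The study states that both sexes were used and the labels do not give the sex by tumor. Tumors are named here by the columns of the table, N1, N2, N4, N5 and N6 for CTRL and T1, T2, T4, T5 and T7 for D30.

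Values are normalized counts, the reads of a gene divided by 1 size factor per tumor. Between 29915331 and 42122304 reads per tumor lay behind them in CTRL and between 29192261 and 37126175 in D30. Tumors N1 and T4 stood apart from the rest of their groups. The deviation of a gene from the other tumors of its group correlated with the GC content of its transcript at Spearman's rho = -0.53 in N1 and -0.47 in T4, across 11575 genes, and at 0.12 to 0.48 in the other 8 tumors. T4 was also the only tumor with Y-linked reads (841 reads of 4 genes). The X-linked transcript Xist was lowest in T4, at 11460 normalized counts, and reached 15569 to 85283 in the other tumors. What these reads mean for the sex of the mice was not tested. T5 had the fewest genes with a read (20482). Results that rest on these tumors are given with and without them. Summed ductal markers, those of the tumor cells, reached 224679 to 355284 in CTRL and 377561 to 500428 in D30, with 7 of 8 markers on the positive side and Epcam at 191 or less in every tumor. Sox9, counted as positive, had 354 in T5 and 23.6 to 37.3 in the other D30 tumors, beside 18.6 to 67.6 in CTRL. The sums for endothelium were 10874 to 18120 and 5399 to 9713 (5 of 6 markers on the negative side), those for T cells 261 to 527 and 160 to 255 (6 of 6), and those for fibroblasts 76539 to 135533 and 26981 to 102553 (8 of 8). Macrophage markers summed to 25390 to 50521 in CTRL and 14613 to 61790 in D30 (5 of 6 negative), acinar markers to 274 to 65028 and 144 to 6042 (7 of 8 tested), islet markers to 13.3 to 1415 and 0 to 15.0 (6 of 6), and adipocyte markers to 4056 to 8872 and 3286 to 6440 (8 of 9). T4 held the highest D30 sum of each of these lists. The other D30 tumors had macrophage sums of 14613 to 18977 and adipocyte sums of 3286 to 3830, below every CTRL tumor. Their acinar sums were 144 to 761. Muscle markers were low in both groups, at 76.6 to 93.3 and 137 to 215, with 5 of 6 tested on the positive side and Myh1, Myh2 and Myh4 at 0. Of single markers, 4 of islets, 1 of endothelium and 1 of macrophages were called lower in D30 (limma, adjusted p under 0.05) and 0 higher. In such bulk samples fewer cells of a type and less RNA per cell cannot be told apart, and the part of these cell type levels in the results below was not tested.

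None of the 10 genes passed the test of all 24560 genes (limma, adjusted p under 0.05), which 2.76% of genes did. The lowest adjusted p was 0.166 for Pdk1 and the highest 0.866 for Pdk2. edgeR's quasi-likelihood test and DESeq2 on the recovered reads also called 0 of the 10, where they called 4.13% and 5.69% of all genes tested. At an unadjusted p under 0.05 in limma 2 genes stood out, Pdk1 on the higher side and Pdhx on the lower side in D30 tumors, where 17.3% of all genes reach that level. Of the fitted differences, 4 were positive and 6 negative, with a median of -0.12 on the log2 scale beside -0.065 over all tested genes. Without T4, 2 of the 10 genes were called, Pdp1 and Pdhx, both lower in D30, beside 6.23% of all genes. The p values of these tests set each group difference against the spread between tumors within groups, estimated with information from all genes. The series describes the tumors as independent biological replicates.

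**Figure D1:**
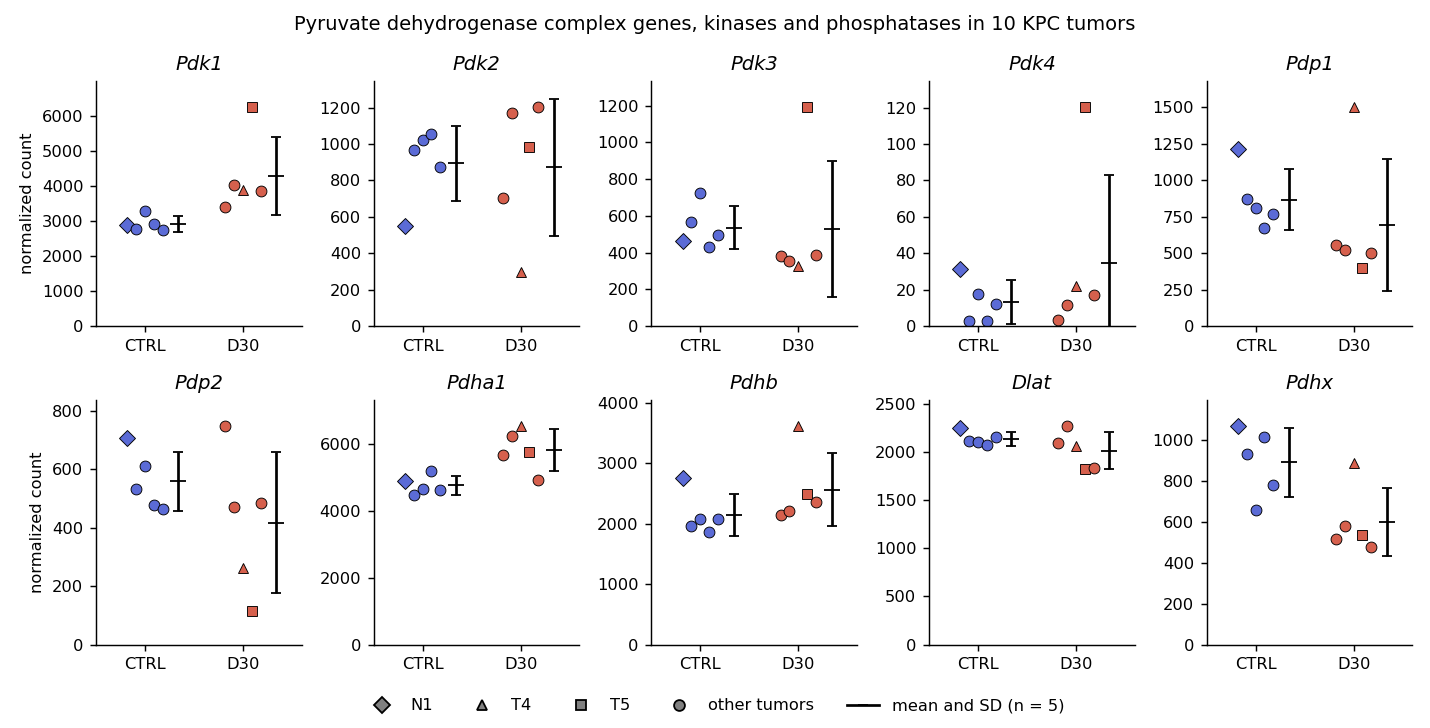
Normalized counts of the 10 genes in each tumor, with CTRL in blue and D30 in red, N1, T4 and T5 drawn with their own symbols, and the group mean with its SD (n = 5) to the right of the points. Pdk1 is the only gene whose 5 D30 points all lie above the 5 CTRL points, and single tumors set apart from their group are T5 for Pdk1, Pdk3 and Pdk4 and T4 for Pdp1, Pdhb and Pdhx.

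Pdk1 (chromosome 2, 71873224 to 71903858, plus strand, GRCm38) encodes the kinase known to be raised by HIF, which phosphorylates E1 alpha and turns pyruvate away from the mitochondrion. Pdk1 had 2869, 2768, 3295, 2914 and 2729 normalized counts in the CTRL tumors N1, N2, N4, N5 and N6, and 3396, 4022, 3884, 6240 and 3859 in the D30 tumors T1, T2, T4, T5 and T7. Each D30 tumor lay above each CTRL tumor, by little in T1 and by most in T5. The means were 2915 ± 225 in CTRL and 4280 ± 1121 in D30 (SD, n = 5), and the fitted difference was 0.52 on the log2 scale (SE 0.19, 95% interval 0.12 to 0.92), a 1.44-fold higher level. It did not pass over all genes (adjusted p = 0.166 in limma, 0.111 in edgeR and 0.0811 in DESeq2). The two-sided exact permutation test of Pdk1 alone gave p = 0.00794, the smallest that 5 tumors against 5 allow and not adjusted for the 10 genes. Pdk1 was the 1 gene of the 10 whose groups did not overlap, which 6.19% of all genes did in either direction and 2.87% with D30 above CTRL. Without T5 the difference was 0.38 and without T4 it was 0.55, and the groups stayed apart in both cases. Library-size scaling, which moved the median of all genes from -0.065 to -0.27, gave 0.30 for Pdk1.

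The promoter window of Pdk1 is shown because Pdk1 is the member whose groups are separate. It spans 250 bases before to 50 bases after the gene start and comes from RefSeq (GRCm38.p6, plus strand, chr2:71872974-71873273), with the matches to the GC box GGGCGG, a short motif bound by factors such as Sp1, in capitals.
Pdk1: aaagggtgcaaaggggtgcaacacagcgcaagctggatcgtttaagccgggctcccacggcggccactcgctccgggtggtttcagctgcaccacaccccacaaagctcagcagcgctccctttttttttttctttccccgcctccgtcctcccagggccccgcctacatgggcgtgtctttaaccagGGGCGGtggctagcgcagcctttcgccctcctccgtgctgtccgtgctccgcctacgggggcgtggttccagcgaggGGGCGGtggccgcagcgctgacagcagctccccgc
The window of Pdk1 held 2 GC boxes on the strand shown, starting 62 bases before and 15 bases after the gene start. A GC box on either strand is in 35.7% of 32851 mouse promoter windows of this length. It was in 6 of the 11 windows of the 9 members with an entry (those of Pdk1, Pdk3, Pdp2, Pdhb, Dlat and Pdhx). The letters ACGTG, the core of the element bound by HIF, are in 19.6% of windows. They were in 4 of the 11 member windows, those of Pdk2, Pdk3, Pdp2 and Pdhb. They were not in the window of Pdk1. The FOXO letters GTAAACA (3.65% of windows) and the nuclear receptor letters AGGTCA (16.3%) were in none of the 11 member windows. All motifs were searched on both strands, and a match is a description of letters only.

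Pdk2 (chromosome 11, 95026258 to 95041354, minus strand) encodes a kinase found in most tissues. It had 550, 966, 1022, 1056 and 872 normalized counts in N1, N2, N4, N5 and N6, and 704, 1171, 297, 986 and 1202 in T1, T2, T4, T5 and T7. N1 was the lowest CTRL tumor and T4 the lowest of all, and the groups overlapped. The means of 893 ± 204 and 872 ± 377 (SD, n = 5) gave a fitted log2 difference of -0.16 (95% interval -0.93 to 0.61, adjusted p = 0.866, limma). Its direction turned without T4, to 0.19, without T4 and T5, to 0.20, and without N1 and T4, to 0.026. At 56.9% GC the Pdk2 transcript lies at the 86.3rd percentile for GC content of the 11575 protein-coding genes with a mean of at least 100.

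Pdk2 and Pdp2, a kinase and a phosphatase, were the 2 members with an E-box, the letters CACGTG that Myc and related factors bind. An E-box is in 7.15% of all windows and was in 2 of the 11 member windows. The windows of Pdk2 and Pdp2 are from RefSeq (GRCm38.p6), with the E-box in capitals. That of Pdk2 is chr11:95041322-95041621 on the minus strand and that of Pdp2 is chr8:104591222-104591521 on the plus strand.
Pdk2: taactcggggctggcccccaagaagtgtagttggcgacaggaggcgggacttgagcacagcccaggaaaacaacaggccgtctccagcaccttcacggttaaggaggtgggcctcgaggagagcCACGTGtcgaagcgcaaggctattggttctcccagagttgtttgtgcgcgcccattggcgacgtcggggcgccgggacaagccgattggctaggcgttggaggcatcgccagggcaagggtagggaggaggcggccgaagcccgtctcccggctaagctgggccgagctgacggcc
Pdp2: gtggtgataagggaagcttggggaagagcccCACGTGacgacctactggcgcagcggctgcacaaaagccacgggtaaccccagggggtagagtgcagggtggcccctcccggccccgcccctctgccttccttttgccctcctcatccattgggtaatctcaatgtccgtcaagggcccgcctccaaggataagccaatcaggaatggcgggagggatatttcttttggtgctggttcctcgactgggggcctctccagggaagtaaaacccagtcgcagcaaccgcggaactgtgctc
The E-box started 126 bases before the gene start in Pdk2 and 219 bases before it in Pdp2, and each E-box also holds the letters ACGTG on both strands. The lowest tumor was T4 for Pdk2 and T5 for Pdp2, with T4 the next lowest for Pdp2.

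Pdk3 (chromosome X, 93764607 to 93832201, minus strand) encodes a kinase relatively insensitive to inhibition by pyruvate. It had 465, 566, 723, 432 and 494 normalized counts in N1, N2, N4, N5 and N6, and 381, 356, 325, 1192 and 389 in T1, T2, T4, T5 and T7. T5 was the highest of all 10 tumors, and the other 4 D30 tumors lay below each CTRL tumor. The means were nearly equal, 536 ± 116 and 529 ± 371 (SD, n = 5), and the fitted log2 difference was -0.20 (95% interval -0.92 to 0.52, adjusted p = 0.810, limma). Without T5 it was -0.54 with an adjusted p of 0.160 in limma.

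Pdk4 (chromosome 6, 5483351 to 5496309, minus strand) encodes the kinase of fasting and fat use, strong in muscle and heart. Its transcript was scarce, with 3 to 30 reads per tumor in CTRL and 3 to 105 in D30. The normalized counts were 31.6, 2.89, 17.4, 2.66 and 12.0 in N1, N2, N4, N5 and N6, and 3.08, 11.5, 22.0, 120 and 17.0 in T1, T2, T4, T5 and T7. T5 stood far above the other D30 tumors, whose range lay within that of CTRL. The fitted log2 difference of 0.91 had a 95% interval from -0.96 to 2.77 (adjusted p = 0.642, limma), and without T4 and T5 it was -0.070.

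Pdp1 (chromosome 4, 11958184 to 11966452, minus strand) encodes a catalytic subunit of the phosphatase, the one stimulated by calcium. It had 1213, 870, 806, 673 and 769 normalized counts in N1, N2, N4, N5 and N6, and 552, 522, 1499, 397 and 497 in T1, T2, T4, T5 and T7. T4 was the highest tumor of all and N1 the next, while the other 4 D30 tumors lay below each CTRL tumor. The means were 866 ± 207 and 694 ± 454 (SD, n = 5), with a fitted log2 difference of -0.47 (SE 0.32, 95% interval -1.17 to 0.22, adjusted p = 0.488, limma). Without T4 it fell by 0.80 on the log2 scale with an adjusted p of 0.0300 in limma, and without N1 and T4 by 0.67 with an adjusted p of 0.0330. The transcript of Pdp1 has 39.2% GC, at the 3.86th percentile of the 11575 protein-coding genes with a mean of at least 100. N1 and T4, where GC-poor genes stood high, were its 2 highest tumors. After subtraction of a smooth curve of GC content and length per tumor, the difference was -0.37 (adjusted p = 0.308, limma).

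Pdp2 (chromosome 8, 104591451 to 104599026, plus strand) encodes the other catalytic subunit of the phosphatase, which responds to insulin in fat tissue. It had 708, 533, 611, 477 and 462 normalized counts in N1, N2, N4, N5 and N6, and 749, 471, 263, 114 and 485 in T1, T2, T4, T5 and T7. T1 was the highest and T5 the lowest of the 10 tumors, so that D30 spanned the whole CTRL range. The means of 558 ± 102 and 416 ± 241 (SD, n = 5) gave a fitted log2 difference of -0.66 (95% interval -1.55 to 0.23, adjusted p = 0.443, limma). Without T4 and T5 it was 0.0094.

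Pdha1 (chromosome X, 160122209 to 160138413, minus strand) encodes E1 alpha, which carries the serines that the kinases phosphorylate. It had 4877, 4475, 4651, 5195 and 4614 normalized counts in N1, N2, N4, N5 and N6, and 5678, 6228, 6537, 5748 and 4910 in T1, T2, T4, T5 and T7. T7 lay within the CTRL range and the other 4 D30 tumors lay above it. The means were 4762 ± 282 and 5820 ± 619 (SD, n = 5), a fitted log2 difference of 0.28 (95% interval -0.045 to 0.61, adjusted p = 0.366, limma), and the exact permutation test of Pdha1 alone gave p = 0.0159, not adjusted for the 10 genes. With library-size scaling the difference was 0.061. Pdha1 shares 603 exon bases with Map3k15 on the opposite strand, which averaged 22.7 normalized counts, and whether reads were counted by strand is not given in the sources used here. Pdha2, the intronless copy of Pdha1, had 0 reads in all 10 tumors.

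Pdhb (chromosome 14, 8165996 to 8173025, minus strand) encodes E1 beta, the partner of Pdha1 in the tetramer. It had 2753, 1965, 2083, 1871 and 2087 normalized counts in N1, N2, N4, N5 and N6, and 2145, 2216, 3625, 2491 and 2364 in T1, T2, T4, T5 and T7. N1 was the highest CTRL tumor and T4 the highest of all. All D30 tumors lay above the 4 other CTRL tumors and, T4 aside, below N1. The means of 2152 ± 348 and 2568 ± 606 (SD, n = 5) gave a fitted log2 difference of 0.24 (95% interval -0.17 to 0.65, adjusted p = 0.562, limma), and 0.11 without T4.

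Dlat (chromosome 9, 50634633 to 50659780, minus strand) encodes the E2 acetyltransferase that forms the core of the complex. It varied least of the 10 genes, with 2249, 2113, 2100, 2066 and 2151 normalized counts in N1, N2, N4, N5 and N6, and 2089, 2270, 2056, 1820 and 1831 in T1, T2, T4, T5 and T7. T5 and T7 were the lowest tumors and T2 the highest. The means were 2136 ± 70.3 and 2013 ± 190 (SD, n = 5), and the fitted log2 difference was -0.090 with a 95% interval from -0.41 to 0.23 (adjusted p = 0.807, limma).

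Pdhx (chromosome 2, 103021075 to 103073513, minus strand) encodes the subunit that binds E3 to the E2 core, without which the complex loses its dihydrolipoamide dehydrogenase. It had 1070, 932, 658, 1013 and 781 normalized counts in N1, N2, N4, N5 and N6, and 516, 578, 887, 537 and 478 in T1, T2, T4, T5 and T7. T4 lay amid the CTRL tumors and the other 4 D30 tumors lay below all of them. The means were 891 ± 170 and 599 ± 165 (SD, n = 5), a fitted log2 difference of -0.59 (SE 0.22, 95% interval -1.06 to -0.11), or 0.666-fold. It did not pass over all genes (adjusted p = 0.194 in limma, 0.183 in edgeR and 0.137 in DESeq2), and the exact permutation test of Pdhx alone gave p = 0.0238, not adjusted for the 10 genes. Without T4, Pdhx fell by 0.74 on the log2 scale with an adjusted p of 0.0283 in limma. Without N1 and T4 it fell by 0.66 (adjusted p = 0.0402, limma; 6.36% of all genes called), and with the GC and length correction, which keeps all 10 tumors, by 0.66 (adjusted p = 0.0425, limma; 4.69% of all genes called). Its difference was negative in each of the 22 alternatives run.

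The promoter window of Pdhx is shown as that of the member with the second smallest p. It comes from RefSeq (GRCm38.p6, minus strand, chr2:103073464-103073763), with its 2 GC boxes in capitals, at 183 and 29 bases before the gene start.
Pdhx: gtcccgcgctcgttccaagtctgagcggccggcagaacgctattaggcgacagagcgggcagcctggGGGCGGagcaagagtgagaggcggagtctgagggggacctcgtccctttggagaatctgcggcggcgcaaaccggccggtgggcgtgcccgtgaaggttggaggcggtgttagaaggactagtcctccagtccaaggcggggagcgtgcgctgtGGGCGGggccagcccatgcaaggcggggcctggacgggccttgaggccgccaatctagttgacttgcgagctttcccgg
As in Pdk1, whose values lay on the opposite side, the window held 2 GC boxes and no ACGTG.

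**Figure D2:**
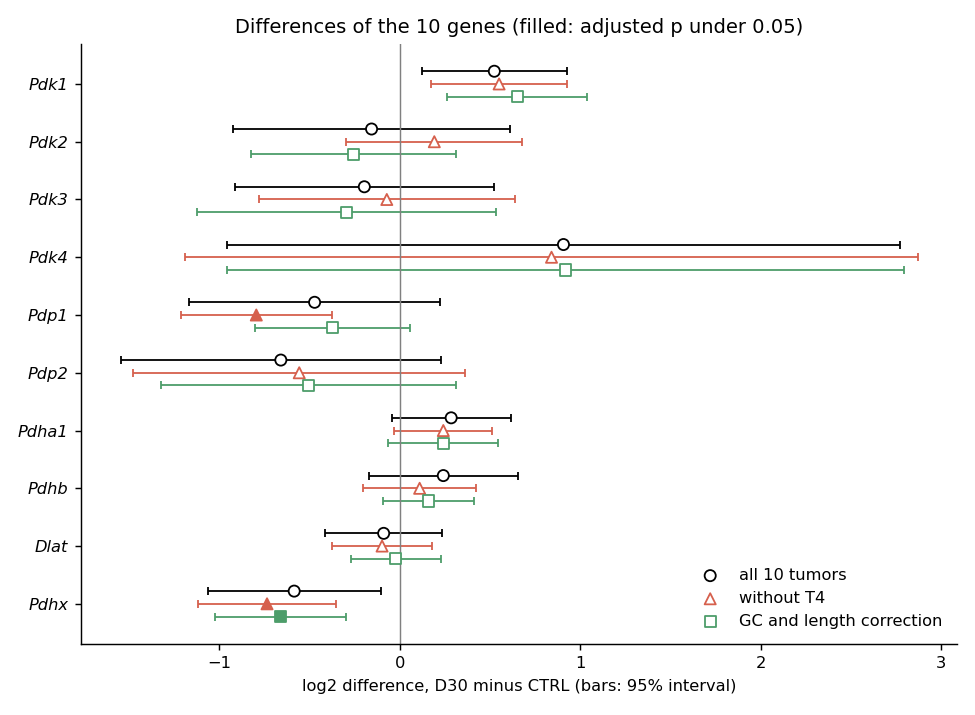
Fitted log2 difference (D30 minus CTRL) of the 10 genes with its 95% interval, for all 10 tumors, without T4, and after the GC and length correction. Filled symbols, those with an adjusted p under 0.05 in limma, are Pdp1 and Pdhx without T4 and Pdhx after the correction, while the intervals of Pdk1 lie above 0 in all 3 fits.

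Leaving out T4 and T5 together was chosen after the values were seen. These are the tumors that made the groups of Pdk3, Pdp1 and Pdhx overlap, so the separation without them is a description only. It gave 4 genes whose groups did not overlap, beside 19.0% of all genes. Pdk1 had D30 above CTRL, and Pdk3, Pdp1 and Pdhx had D30 below it. Pdp1 (adjusted p = 0.0468) and Pdhx (adjusted p = 0.0319, both limma) were called in that comparison of 5 tumors against 3, as were 8.57% of all genes, and Pdk1 was not (adjusted p = 0.0779, limma). Without T4 alone, 3 genes did not overlap, Pdk1, Pdp1 and Pdhx, beside 12.1% of all genes. All 10 genes had a larger SD of log2 values in D30 than in CTRL, as had 92.1% of the 12215 genes with a mean of at least 100. T5 held the highest or the lowest value of 6 of the 10 genes (36.5% of genes) and T4 that of 5 (63.1% of genes).

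**Figure D3:**
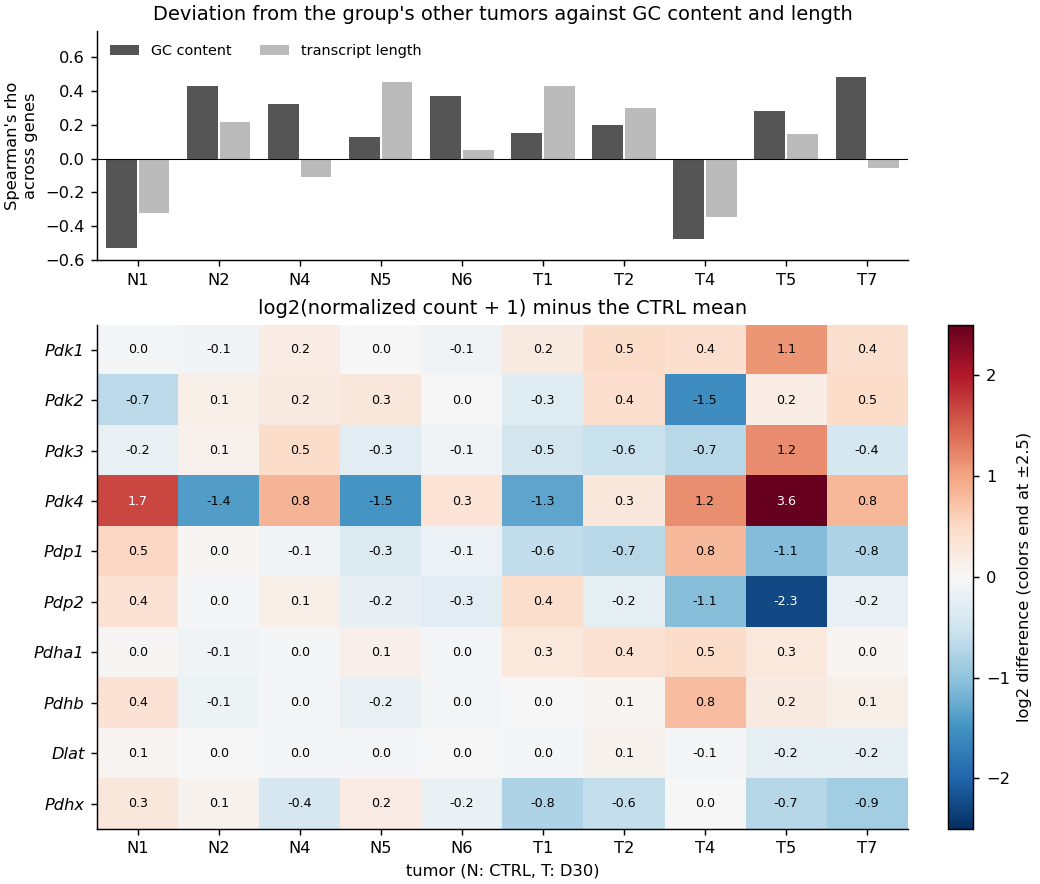
Top, Spearman's rho across 11575 genes between a gene's deviation from the other tumors of its group and its GC content (dark) or transcript length (light), which is below -0.4 for GC content in N1 and T4 only. Bottom, log2(normalized count + 1) of each gene in each tumor minus the CTRL mean, where Pdk2 is lowest and Pdp1 highest within their group in N1 and T4, and T5 has the highest Pdk1, Pdk3 and Pdk4 and the lowest Pdp1, Pdp2 and Dlat.

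Levels between genes were compared per kb of annotated exon. In CTRL tumors Pdha1 was the most abundant, at 1275 ± 75.4 normalized counts per kb (SD, n = 5), followed by Pdhb at 557 ± 90.1, Dlat at 437 ± 14.4 and Pdk1 at 375 ± 28.9. Below them came Pdk2 at 282 ± 64.5, Pdhx at 227 ± 43.1, Pdk3 at 209 ± 45.1, Pdp1 at 192 ± 45.8, Pdp2 at 98.1 ± 17.9 and Pdk4 at 3.79 ± 3.41. The neighbours Dlat and Pdk1, Pdk2 and Pdhx, Pdhx and Pdk3, and Pdk3 and Pdp1 overlapped in their ranges over the CTRL tumors, and the other neighbours did not. In D30 tumors Pdk1, at 550 ± 144 per kb, lay above Dlat, at 412 ± 38.9, in 5 of 5 tumors, and in 0 of 5 CTRL tumors. With the length of the longest transcript in place of all exons, Pdk1 lay above Dlat in 3 of 5 CTRL tumors too. Pdhx, at 153 ± 42.0 per kb in D30, came after Pdk3 (206 ± 145) and Pdp1 (154 ± 101) there, with overlapping ranges.

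Within the kinases, the share of Pdk1 in the summed transcripts per kb was 50.3%, 40.3%, 41.0%, 42.7% and 42.6% in N1, N2, N4, N5 and N6, and 54.0%, 50.2%, 68.7%, 49.7% and 48.0% in T1, T2, T4, T5 and T7. Only N1 among the CTRL tumors reached the D30 range, and T4 was the highest of all. Mean shares in CTRL and D30 were 43.4% ± 4.01 and 54.1% ± 8.44 for Pdk1, 32.2% ± 5.34 and 26.5% ± 10.4 for Pdk2, 23.9% ± 2.99 and 18.6% ± 6.07 for Pdk3, and 0.460% ± 0.465 and 0.776% ± 0.801 for Pdk4 (SD, n = 5). The sum of the 4 kinases was 870 ± 110 per kb in CTRL and 1042 ± 347 in D30, and that of both phosphatases 290 ± 62.1 and 227 ± 99.6. The kinase sum was 733 to 1034 in CTRL, 1613 in T5, 726 in T4 and 809 to 1033 in the other D30 tumors. The phosphatase sum was 233 to 394 in CTRL, 379 in T4, 108 in T5 and 196 to 254 in the other D30 tumors.

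The ratio of kinase to phosphatase transcripts was 1.86, 3.08, 3.61, 3.77 and 3.27 in N1, N2, N4, N5 and N6, and 3.19, 5.18, 1.92, 14.9 and 5.28 in T1, T2, T4, T5 and T7. T5, T7 and T2 exceeded the CTRL range, T1 and T4 lay within it, and N1 and T4 had the 2 lowest ratios. Since T5 alone reached 14.9, the D30 mean of 6.09 had an SD of 5.12. The ratio of Dlat to Pdhx per kb was 1.69, 1.82, 2.57, 1.64 and 2.21 in the CTRL tumors and 3.26, 3.16, 1.86, 2.73 and 3.08 in the D30 tumors in the same order. The D30 tumors other than T4 lay above the CTRL range. Pdp1 made up 66.0% ± 2.59 of both phosphatases in CTRL and 66.5% ± 17.2 in D30. Despite the similar means, no D30 tumor lay in the CTRL range of 62.5% to 68.4%. T1, T2 and T7 had 48.2%, 58.4% and 56.5%, and T4 and T5 had 87.8% and 81.4%. These shares and ratios are descriptions and were not tested.

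**Figure D4:**
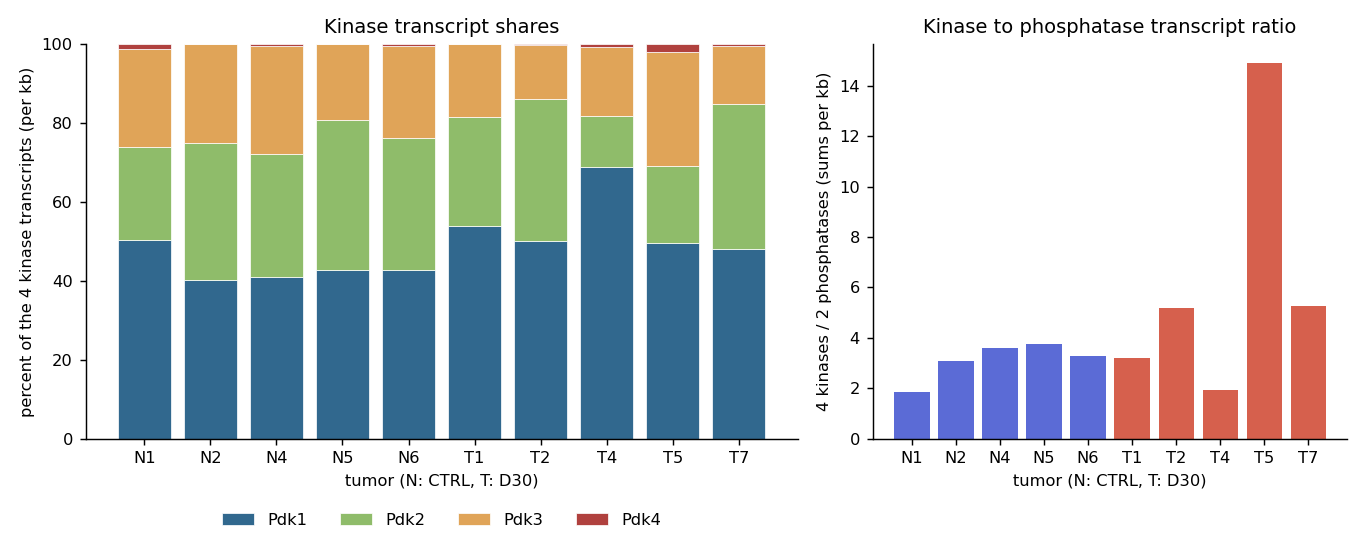
Left, the share of each kinase in the summed kinase transcripts per kb in each tumor, where Pdk1 takes 40.3% to 50.3% in CTRL and 48.0% to 68.7% in D30. Right, the ratio of the 4 kinases to the 2 phosphatases per kb, with CTRL in blue and D30 in red, which is 1.86 to 3.77 in CTRL and 1.92 to 14.9 in D30.

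Around the complex, 88 genes of 6 lists were read from the same fit, and 9 were called, 8 higher and 1 lower in D30, beside 1.40% and 1.36% of all genes. The HIF targets known to be regulated with Pdk1 had 5 of 12 genes higher and 0 lower, with all 12 fitted differences positive and a median of 1.59 on the log2 scale. These were Car9 (a carbonic anhydrase; 4137 ± 1703 and 14422 ± 6871 normalized counts, log2 difference 1.75, adjusted p = 0.0153, limma), Ankrd37 (1.62, adjusted p = 0.0141), Pgk1 of glycolysis (1.38, adjusted p = 0.0183), the HIF prolyl hydroxylase Egln3 (1.66, adjusted p = 0.0323) and the endoplasmic reticulum oxidase Ero1a (1.91, adjusted p = 0.0350). The log2 difference of Pdk1, at 0.52, was below that of 11 of these 12 genes. With library-size scaling the median of the list was 1.36, and without T4 and T5 it was 1.03. T5 had 35011 normalized counts of Ero1a, and the other D30 tumors had 6816 to 8765. For Egln3 it had 16001, and the other D30 tumors had 3427 to 5379.

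Of 18 genes of pyruvate supply and its other fates, 1 was called. Ldha, the lactate dehydrogenase subunit that competes for pyruvate, rose from 29095 ± 9190 to 66480 ± 24685 normalized counts (SD, n = 5; log2 difference 1.17, adjusted p = 0.0371, limma), and its groups did not overlap. Gpt, an alanine transaminase, had a log2 difference of 0.95 (adjusted p = 0.109) and the lactate exporter Slc16a3 one of 1.11 (adjusted p = 0.166, both limma). Among 14 regulators of the kinase genes, Esrra, an estrogen-related receptor, rose from 2235 ± 181 to 4428 ± 1621 (log2 difference 0.92, adjusted p = 0.0491, limma). Without T4, which had the highest value (7069), the difference of Esrra was 0.73 (adjusted p = 0.0183, limma). Its coactivator Ppargc1a fell by 1.56 on the log2 scale, from 254 ± 90.7 to 90.0 ± 43.1 (adjusted p = 0.0478, limma). Ppargc1b, a related coactivator, had a log2 difference of 1.83 (adjusted p = 0.152, limma), with T4 at 8.10 and the other D30 tumors at 63.0 to 142. Without T4 its adjusted p was 0.00256 in limma.

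Of 15 PPAR and FOXO targets known to be regulated with Pdk4, 1 was called. Txnip, the glucose-responsive thioredoxin-interacting protein, rose from 8766 ± 1945 to 29966 ± 13768 (log2 difference 1.67, adjusted p = 0.0123, limma). Without T4, which had the highest value (45443), the difference of Txnip was 1.49 (adjusted p = 0.00840, limma). The lipid droplet gene Plin2 had a log2 difference of 0.83 (adjusted p = 0.176, limma). No gene was called among 19 of the E3 component, lipoyl and iron-sulfur cofactors and thiamine supply (2 at an unadjusted p under 0.05 in limma, 0 called in edgeR), where the smallest adjusted p values were 0.152 for Nfu1, 0.188 for Fdx1 and 0.314 for Sirt3. None was called either among 10 genes of the sister complexes for 2-oxoglutarate and branched-chain keto acids (1 at an unadjusted p under 0.05 in limma, 0 called in edgeR). There Bckdhb, the branched-chain E1 beta, had a log2 difference of -0.65 (adjusted p = 0.177), Dhtkd1 one of -1.04 (adjusted p = 0.338) and Dlst one of 0.19 (adjusted p = 0.581, all limma). The medians of these lists were 0.24 for pyruvate supply, 0.20 for the regulators, 0.11 for the PPAR and FOXO targets, 0.24 for the cofactors and -0.18 for the sister complexes. With library-size scaling they were, in the same order, 0.017, -0.027, -0.11, 0.020 and -0.41, and without T4 and T5 they were 0.24, 0.33, 0.0010, 0.14 and 0.10, so that the sign of the sister complexes turned there and those of the regulators and of the PPAR and FOXO targets turned with the scaling. The count of 9 called genes was 4 without N1, 1 without N2, 3 without N5, 3 without N6, 5 without T2 and 4 without T7.

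**Figure D5:**
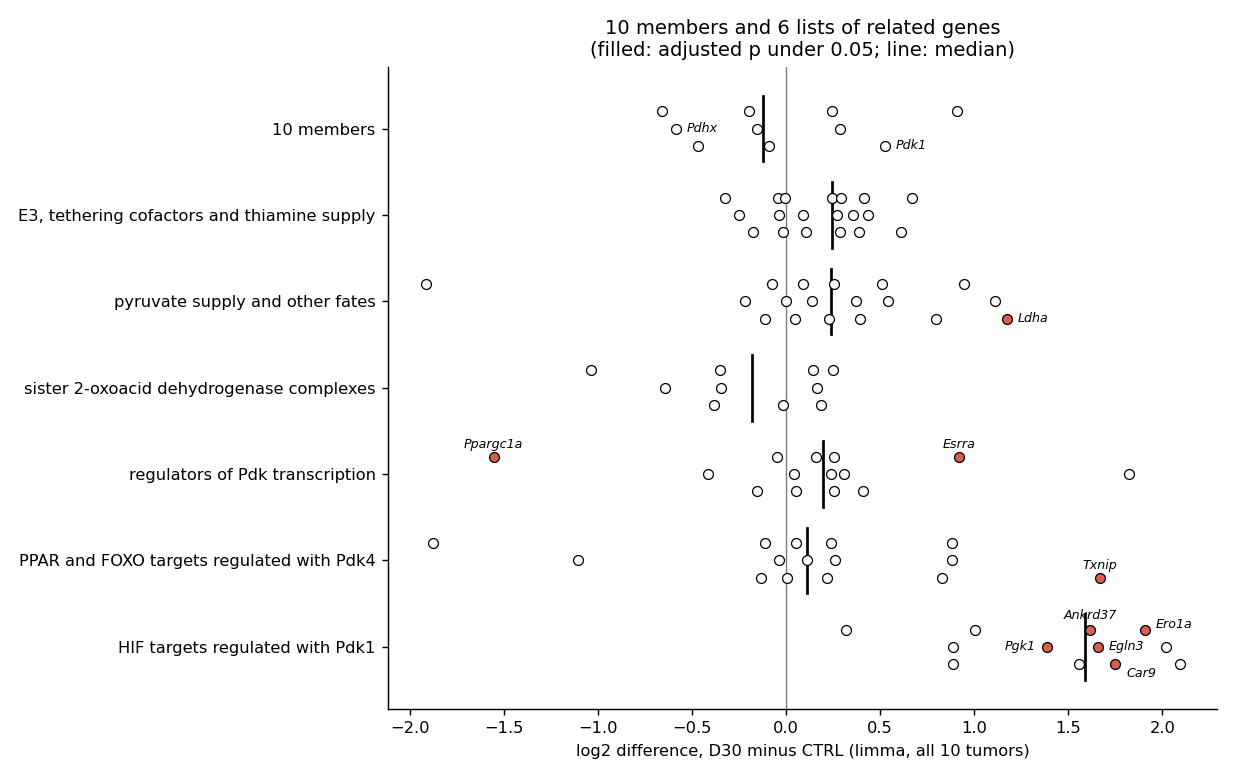
Fitted log2 difference (D30 minus CTRL, limma, all 10 tumors) of the 10 genes and of the 88 genes of 6 related lists, 1 point per gene, with the median of each list as a line. The 9 filled points have an adjusted p under 0.05, 5 of them among the HIF targets, and none of the 10 genes of the complex is filled.

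The genes whose log2 values were most like those of Pdk1 over the 10 tumors, among 12199 genes with a mean of at least 100, included the stress-induced phosphatase regulator Ppp1r15a (Pearson's r = 0.986), the stress transcription factor Ddit3 (0.984), the HIF prolyl hydroxylase Egln3 (0.979) and Vapa (0.974), a membrane protein of the endoplasmic reticulum. T5 was the highest tumor for Pdk1, and without it r was 0.958, 0.951, 0.950 and 0.936. These correlations rank genes over the same 10 libraries and are given as a description.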

How the data were processed

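RNA was sequenced from 10 tumors, 5 CTRL and 5 D30, as strand-specific paired-end libraries. Per the labels and methods, the authors trimmed the reads with Trim Galore, aligned them with STAR 2.7.0e and ran DESeq2. The methods name hg38 as the reference and the submitters' processing notes GRCm39, and the table lists mouse Ensembl identifiers. RSEM is listed among the study's software, while its settings, strand included, are not given in the sources used here. The deposited signal is a read count that the authors divided by a size factor for each tumor, and no column was left unused (0 such columns). All values above 0 were whole multiples of 1 step per column (100% within 0.01 of a whole read), so that reads were recovered. The rows without a gene name numbered 0. Columns were assigned to groups by their letter, N for normoglycemic and T for the other group, since the number in a column's name is not the label's replicate number.

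Identifiers were matched without version to GENCODE M21 (GRCm38), which named 52083 of 55359 genes (94.1%). The authors' annotation release is not given in the sources used here. The limma 3.58.1 test with a mean-variance trend (R 4.3.3) was run on log2(normalized count + 1) over the 24560 genes with a mean of at least 1, and an adjusted p (Benjamini-Hochberg) under 0.05 counted as a call. Fold changes are on that scale and understate those of low genes. The alternatives on recovered reads used edgeR 4.0.16 and DESeq2 1.42.0, and the limma step was tested on simulated data. Single genes were also compared by two-sided exact permutation of the mean log2 difference over all 252 assignments of the tumors (Python 3.11.15, numpy 2.4.6). Levels were divided by the union of annotated exons.

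The 10 genes, the gene lists and the tests were chosen with earlier results of these data known. The genes named are the 10 members, from each related list the called genes and the 3 with the smallest p, and the 5 genes most correlated with the member of the smallest p. Ero1a was matched through an older symbol. A few genes named by this rule are not reported here. Promoter windows were found for 9 of the 10 members (11 windows).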

Additional observations from a re-analysis of the deposited data

Results flagged for a closer look

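In 44 groups of 5 tumors (each gene, share and ratio in CTRL and in D30) the highest or lowest tumor was tested by Dixon's criterion, its gap to the nearest tumor divided by the range, with a limit of 0.71. By chance about 1 group in 20 passes it where values are normally distributed. The 44 groups are not independent, since shares and ratios reuse the same genes and tumors. Their number of passes can thus not be judged by that rate. Here 10 passed, 8 of them in D30 and 2 in CTRL.

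T5 was far above the other D30 tumors for 3 kinases and for 1 ratio. It had 6240 normalized counts of Pdk1 where the next D30 tumor had 4022, 1192 of Pdk3 where the next had 389, and 120 of Pdk4 where the next had 22.0. Its ratio of kinase to phosphatase transcripts was 14.9, and the next was 5.28.

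T4 was far above the other D30 tumors for Pdp1 (1499, next 552), for Pdhb (3625, next 2491), for Pdhx (887, next 578) and for the share of Pdk1 among the kinases (68.7%, next 54.0%). N1 stood out on the same side in CTRL for Pdhb (2753, next 2087) and for the share of Pdk1 (50.3%, next 42.7%). N1 and T4 are the tumors whose deviations ran against GC content (rho = -0.53 and -0.47) and against transcript length (rho = -0.32 and -0.34), and the part of this in these values was not tested beyond the corrected differences given above.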

How the results depend on the processing

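The alternatives without T4 and T5, without N1 and T4, and with the GC and length correction were chosen after seeing the data, and the cause of each shift below was not tested. The 678 called genes became 1858 with DESeq2, 2105 without T4 and T5, 1563 without N1 and T4, 1139 with the correction, and 270 (without N2) to 1530 (without T4) with 1 tumor left out, with 336 without N5, 332 without N6 and 435 without T7. Of the 678, 344 were higher and 334 lower (50.7% higher), against 240 and 626 with library-size scaling (27.7%) and 457 and 250 in edgeR. The 0 called genes of the complex became 2 without T4 and T5, 2 without N1 and T4, 1 with the correction, and 0 to 2 with 1 tumor left out. Their median log2 difference of -0.12 was -0.35 with library-size scaling and -0.16 to 0.019 with 1 tumor left out. The 9 called genes of the related lists became 16 with DESeq2, 20 without T4 and T5, and 1 to 13 with 1 tumor left out. Directions turned for Pdk2 (0.20 without T4 and T5, 0.026 without N1 and T4, and -0.32 to 0.19 with 1 tumor left out, turning without T4) and, without T4 and T5, for Pdk4 (-0.070) and Pdp2 (0.0094), and in no other alternative. Pdk1 kept its direction in all 22 alternatives, with adjusted p values from 0.0571 to 0.373, as did Pdhx with 0.0283 to 0.381. No paired analysis was possible because the numbers of the columns are not the replicate numbers of the labels. Pdk4 had the fewest reads of the 10 genes, 3 to 105 per tumor, and the part of depth in its wide interval was not tested.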

Other observations

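Without T4, 13 of the 88 genes of the related lists were called (12 higher, 1 lower), beside 6.23% of all genes. With all tumors 2.76% of all genes were called. Genes named here were chosen after their values were seen. Of the HIF targets, P4ha1, a collagen prolyl hydroxylase subunit, had an adjusted p of 0.0108 in limma without T4, where it had 0.0589 with all tumors, and the glucose transporter Slc2a1 had 0.0411, where it had 0.0635. In T5, the tumor with the highest Pdk1, Slc2a1 reached 30003 normalized counts, and it had 6383 to 7325 in the other D30 tumors and 2324 to 6206 in CTRL. The citrate carrier Slc25a1, through which the product of the complex leaves the mitochondrion for fatty acid synthesis, had an adjusted p of 0.0484 in limma without T4, where it had 0.306 with all tumors. Of the other 2-oxoacid dehydrogenase genes, Bckdhb had 392 to 611 in CTRL and 186 to 374 in D30, with no overlap, where 6.19% of all genes have none.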
